A study of Homo sapiens with 12 samples.

Results

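The tumour suppressor p53 is a transcription factor that is held low in unstressed cells by the ubiquitin ligase MDM2 and that, once stabilised, binds DNA and switches on genes of growth arrest, cell death, DNA repair and metabolism. MDM2 is itself one of these genes, so the pathway carries its own brake. The 41 genes described here are established p53 targets, taken by their symbols from the 60675 genes counted in each library, and each symbol matched 1 gene identifier. They fall into 5 roles, with 10 genes of arrest and feedback, 12 of cell death, 4 of DNA repair, 7 of metabolism and 8 secreted or other products.

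RNA was sequenced from 12 libraries of 2 human prostate cancer lines, LNCaP, which is androgen dependent, and LNCaP:C4-2 (C4-2), its castration-resistant derivative obtained from LNCaP grown in castrated mice. The synthetic androgen R1881 (1 nM) was present in every culture, and treatment lasted 72 h. The 8 C4-2 libraries held R1881 alone, R1881 with namoline at 50 µM (an inhibitor of the histone demethylase KDM1A), R1881 with TCE-5002 (an inhibitor of the demethylase KDM7A), and R1881 with both inhibitors (the combination), in 2 libraries each. Of the 4 libraries labelled LNCaP, 2 had R1881 alone and 2 the combination. The study describes TCE-5002 as selective for KDM7A, and as also acting on the demethylases KDM7B and KDM2A. The description of the series gives 100 µM for TCE-5002 whereas a lower dose stands in the methods of the study, and which of these was used is not known here. A treatment field in the labels describes siRNA work that does not match these groups, and the groups were taken from the library titles. One line of each kind was studied, and the study describes its replicates as biological.

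Library totals ran from 14791602 to 20690819 counts, and in each of the 6 groups the replicates differed by more than counting noise. The C4-2 TCE-5002 pair stood farthest apart, and the difference between its libraries followed transcript GC content, with a Spearman rho of -0.70 across genes. In the other groups this rho was -0.43 (C4-2 R1881), -0.38 (C4-2 namoline), -0.16 (C4-2 combination), 0.16 (LNCaP R1881) and 0.51 (LNCaP combination). The header inside the file of LNCaP combination replicate 1 names a namoline-only input, whereas its title gives the combination, so the counts and medians for LNCaP, and the values of some genes, are also given without that library. In most markers tested, though not all, the libraries labelled LNCaP also went against the luminal epithelial profile of the line. E-cadherin (CDH1) stood at 45.3 and 39.7 CPM (counts scaled for depth and library composition) with R1881 there, against 948 and 990.3 CPM in C4-2, and vimentin (VIM) stood at 652 and 735 CPM against 2.62 and 2.24 CPM. All 12 luminal markers were detected in every library, with a summed level of 470 to 1022 CPM in the libraries labelled LNCaP and 2738 to 7829 CPM in C4-2, and the 10 mesenchymal markers summed to 776 to 955 CPM and 75.4 to 110.2 CPM, with 0 or 1 and 2 to 4 of them at 0. With R1881 alone 11 of the 12 luminal markers were lower in the libraries labelled LNCaP and 1 higher, against 37.8% and 39% of all genes. The higher one was KLK3, at 404 and 357 CPM against 206 and 224 CPM in C4-2. Of the 9 mesenchymal markers tested 7 were higher there and 2 lower, against 39% and 37.8%. COL1A1 was among the lower, at 4.97 and 4.02 CPM against 49.4 and 50.0 CPM in C4-2. Neuroendocrine markers summed to 175 to 189.9 CPM in the libraries labelled LNCaP and 8.44 to 37.1 CPM in C4-2. Lymphoid markers stayed at or below 4.07 CPM in sum. The part that this marker difference has in any difference between the lines was not tested, and in bulk RNA a change in the number of cells cannot be told apart from a change in RNA per cell.

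p53 binds as a tetramer to paired half-sites, each of which carries a C and a G at fixed places around an A or T core, flanked by purines on the 5′ side and pyrimidines on the 3′ side. RefSeq windows (GRCh38.p14) from 250 bases before to 50 bases after the gene start were found for 32 of the 41 genes. The genes with no window were GADD45A, LIF, PHLDA3, RRM2B, TNFRSF10A, TNFRSF10B, TNFRSF10C, TP53INP1 and TRIM22. An exact 10-base half-site was present for 7 of the 32 genes (21.9%), against 8.06% of the 27305 genes with a window. Paired half-sites with a spacer of at most 13 bases and at most 3 mismatches were present for 9 (28.1%), against 15.3% of all genes, and with at most 2 mismatches for 5, against 3.62% of all genes. The half-site is palindromic, so that 1 strand covers both, and a match is a description of letters, not of binding. The 5 closest matches are shown as examples of letters near this pattern in genes whose RNA is described here, with both half-sites in capitals.

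DDB2, chr11:47214975-47215003, plus strand: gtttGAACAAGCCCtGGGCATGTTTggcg
FAS, chr10:88991304-88991333, plus strand: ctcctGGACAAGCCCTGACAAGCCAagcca
MDM2, chr12:68808918-68808947, plus strand: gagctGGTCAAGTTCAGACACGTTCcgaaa
AEN, chr15:88621301-88621330, plus strand: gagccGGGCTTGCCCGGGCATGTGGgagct
FDXR, chr17:74872996-74873025, minus strand: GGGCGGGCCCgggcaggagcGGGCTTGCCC

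The DDB2 pair matched without a mismatch, with a spacer of 1 base, and lay from base 5 to base 25 after the downstream of 2 RefSeq starts, in an exon, 514 bases from the 5′ end of the gene. The FAS pair had 2 mismatches and no spacer, and lay from 122 to 103 bases before an internal start, inside an exon of the annotation used for counting. In MDM2 the pair lay from 94 to 75 bases before the start of its internal promoter, in an intron, and also had 2 mismatches. The AEN pair lay from 34 to 15 bases and the FDXR pair, whose half-sites are 10 bases apart, from 31 to 2 bases before the start, both within an annotated exon. These pairs had 2 mismatches each. In FDXR both mismatches fell on the A or T core of the first half-site, and the core of the second MDM2 half-site also held a mismatch. With the combination in C4-2 these 5 genes differed from R1881 by 2.84, 4.23, 1.96, 2.87 and 2.72 on the log2 scale, in that order. SESN1, RPS27L, PLK2 and ZMAT3 had pairs with 3 mismatches, and the windows of the other 23 genes, CDKN1A, BTG2, BBC3 and BAX among them, held no pair of this kind, which says only that these letters are not in those windows.

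The p53 targets were raised together by the combination in C4-2 cells. Of the 40 genes tested, 37 rose and 1 fell at an adjusted p under 0.05 (edgeR quasi-likelihood F test, Benjamini-Hochberg over all genes), where 24.8% of all 17702 genes tested were higher and 25.6% lower. A change of at least 2-fold was called for 31 of the 40 in the upward direction and for 1 downward, against 8.87% and 12.8% of all genes. Their median log2 fold change was 1.84, and that of all genes was -0.03. Summed over the 41 genes, the level was 1734 and 1767 CPM with R1881 alone, 2230 and 2039 CPM with namoline, 1914 and 1717 CPM with TCE-5002 and 6217 and 6680 CPM with the combination. Only the combination libraries stood far from the rest, and the TCE-5002 libraries overlapped those with R1881 alone. Leaving out each C4-2 library in turn changed none of these 4 counts of called genes by more than 1.5 times.

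**Figure D1:**
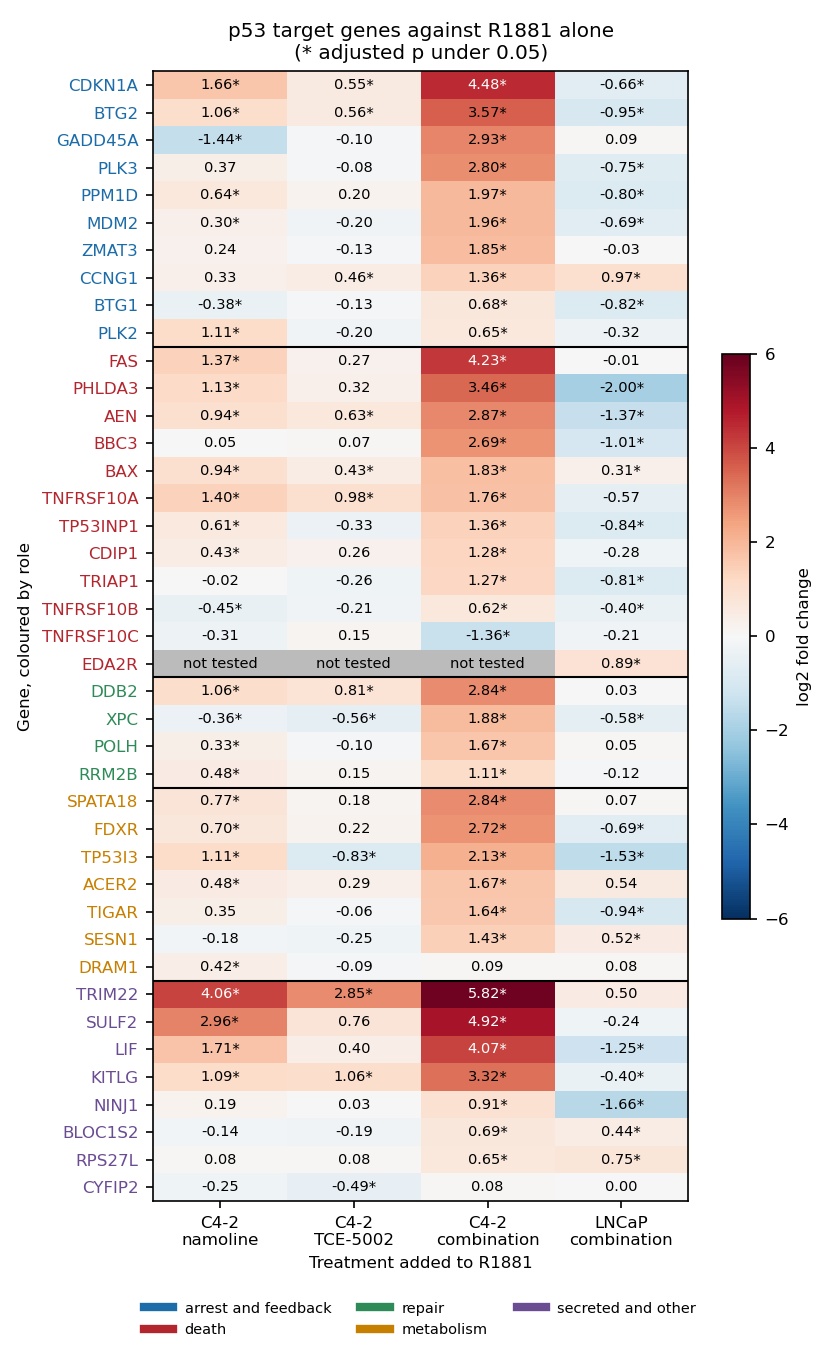
Log2 fold change of each of the 41 genes (rows, grouped and coloured by role) for 3 treatments of C4-2 and 1 of the libraries labelled LNCaP, each against R1881 alone in the same line (columns, 2 libraries per group). The C4-2 combination column is positive for 39 of the 40 genes tested, while in the LNCaP column 14 of 41 values are positive; grey cells were not tested because counts were too low.

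The single inhibitors moved fewer of these genes. Namoline raised 24 of the 40 and lowered 4, against 18.7% and 16.3% of all genes, with 12 raised and 1 lowered at least 2-fold, against 5.17% and 6.88% of all genes, and a median log2 fold change of 0.45. When single libraries were left out it raised 16 to 19 and lowered 1 to 2. TCE-5002 raised 9 and lowered 3, against 19.9% and 16.7% of all genes, so that the share raised (22.5%) was close to that of the genome as a whole. It raised 2 genes at least 2-fold and lowered none, against 5.04% and 6.8% of all genes, and the median log2 fold change was 0.11. Without TCE-5002 replicate 1 the number lowered was 9, without R1881 replicate 1 the number raised was 5, and with a correction for GC content the median was -0.02. All 3 comparisons share the R1881 libraries. Of the 31 genes called at least 2-fold higher with the combination, 19 had no 2-fold call with either inhibitor alone. The share of all genes with that pattern was not counted.

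Among the genes of arrest and feedback all 10 rose with the combination, 8 of them at least 2-fold, against 24.8% and 8.87% of all genes. CDKN1A (ENSG00000124762, chr6:36676460-36687339), which encodes the cyclin-dependent kinase inhibitor p21, stood in the C4-2 libraries at 58.1 and 73.2 CPM with R1881 alone, 238 and 182 with namoline, 93.5 and 102 with TCE-5002 and 1420 and 1531 with the combination. The combination libraries lay far above the other 6, and the namoline libraries also lay above both with R1881 alone. The fold change was 22.3 with the combination (log2 4.48 ± 0.17 SE, adjusted p = 2.9e-10), 3.17 with namoline (log2 1.66 ± 0.15, adjusted p = 1.6e-06) and 1.47 with TCE-5002 (log2 0.55 ± 0.15, adjusted p = 0.0094). The TCE-5002 call was lost with GC correction and without R1881 replicate 1. Per length of all annotated exons, CDKN1A stood at 21.5 ± 3.51 FPKM (counts also scaled by that length, SD, n = 2) with R1881 alone, at rank 6 among the 41 genes. With the combination it stood at 484 ± 25.8 FPKM, the highest of them.

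BTG2, an antiproliferative cofactor of mRNA deadenylation, stood at 11.1 and 12.5 CPM with R1881 alone, 26.1 and 23.8 with namoline, 18.3 and 17.0 with TCE-5002 and 137 and 147 with the combination. It rose by 1.06 ± 0.13 with namoline, 0.56 ± 0.13 with TCE-5002 and 3.57 ± 0.13 with the combination on the log2 scale, and no group overlapped with R1881 alone, although the TCE-5002 call was lost without R1881 replicate 1. Growth arrest gene GADD45A (ENSG00000116717, chr1:67685061-67688338), whose product binds PCNA and p21, was the one target with 2-fold calls in opposite directions inside C4-2. Its levels were 55.5 and 51.0 CPM with R1881 alone, 24.2 and 15.5 with namoline, 55.1 and 45.6 with TCE-5002 and 396 and 423 with the combination. Namoline lowered it 2.72-fold (log2 -1.44 ± 0.17, adjusted p = 1.8e-05), while the combination raised it 7.62-fold (log2 2.93 ± 0.17, adjusted p = 1.4e-08). TCE-5002 libraries overlapped those with R1881 alone.

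PLK3, a stress-responsive polo-like kinase, showed 7.63 and 9.08 CPM with R1881 alone, 10.2 and 11.6 with namoline, 6.93 and 8.99 with TCE-5002 and 58.2 and 58.7 with the combination. The combination pair was the one group past the test, with a rise of 2.80 ± 0.16 on the log2 scale. The feedback genes MDM2 and PPM1D, whose products restrain p53 by ubiquitination and by dephosphorylation, rose by less than CDKN1A. MDM2 was measured at 148 and 138 CPM with R1881 alone, 186 and 172 with namoline, 134 and 118 with TCE-5002 and 552 and 572 with the combination, a rise of 1.96 ± 0.11 with the combination (adjusted p = 1.4e-08). Its rise of 0.30 ± 0.11 with namoline (adjusted p = 0.047) was lost under RLE scaling, without the filter on low counts, with DESeq2 and on leaving out any of the 4 libraries. PPM1D was measured at 20.8 and 21.4 CPM with R1881 alone, 31.4 and 35.3 with namoline, 28.0 and 21.2 with TCE-5002 and 80.4 and 85.9 with the combination, with log2 differences of 0.64 ± 0.14 for namoline, a call lost without namoline replicate 2, and 1.97 ± 0.14 for the combination. ZMAT3, CCNG1, BTG1 and PLK2 make up the rest of the group, with combination changes from 0.65 (PLK2, a polo-like kinase) to 1.85 (ZMAT3, an RNA-binding zinc finger protein). PLK2 was the one gene of the group that stood higher with namoline alone, at 15.4 and 18 CPM, than with the combination, at 11.8 and 12.2 CPM.

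**Figure D2:**
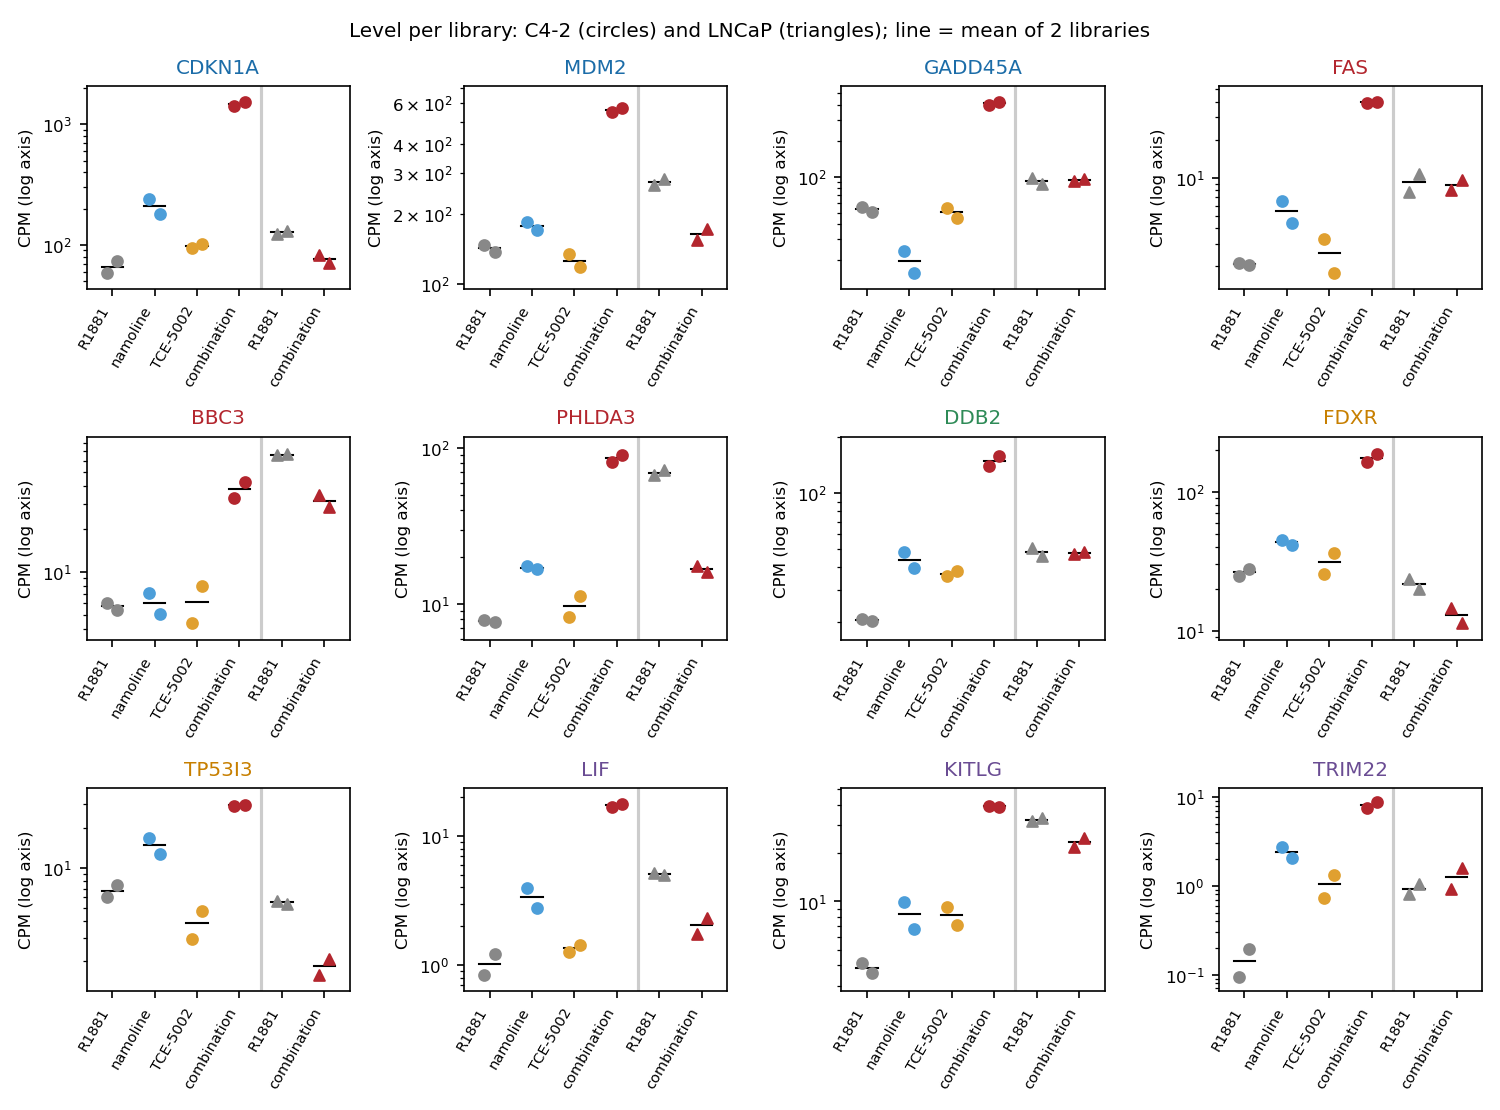
Level of 12 p53 targets in each of the 12 libraries, in CPM on log axes that differ between panels; circles are C4-2, triangles the libraries labelled LNCaP, horizontal lines the mean of 2 libraries, and title colours the role as in the heat map of fold changes. CDKN1A reaches 1420 and 1531 CPM in the C4-2 combination libraries and 83.1 and 71.2 CPM in the LNCaP combination libraries; GADD45A is lowest with namoline and highest with the combination.

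Of the 12 genes of cell death 11 were tested in C4-2, where the combination raised 10, 9 of them at least 2-fold, and lowered 1. Among all genes 24.8% rose, 8.87% rose at least 2-fold and 25.6% fell. FAS (ENSG00000026103, chr10:88990531-89015785), the death receptor for FAS ligand, stood at 2.11 and 2.05 CPM with R1881 alone, 6.52 and 4.37 with namoline, 3.31 and 1.77 with TCE-5002 and 39.3 and 39.5 with the combination. Both combination libraries were above all others, and 1 TCE-5002 library was below and 1 above the R1881 pair. The rise was 18.7-fold with the combination (log2 4.23 ± 0.25, adjusted p = 1.8e-08) and 2.58-fold with namoline (log2 1.37 ± 0.28, adjusted p = 0.0015). Exons of FAS overlap those of ACTA2 on the opposite strand over 11.7% of their length. Counting did not use strand, so reads in the shared stretch cannot be assigned to 1 of these genes with certainty. How such reads were counted was not examined. The level of ACTA2 averaged 5.11 CPM over the libraries.

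The BH3-only gene BBC3, which encodes PUMA, was measured at 6.08 and 5.44 CPM with R1881 alone, 7.05 and 5.03 with namoline, 4.36 and 7.92 with TCE-5002 and 33.0 and 42.5 with the combination. Neither inhibitor alone separated from R1881, with log2 values of 0.05 ± 0.27 and 0.07 ± 0.26, whereas the combination raised BBC3 by 2.69 ± 0.24 (adjusted p = 9.1e-07). BAX, the pore-forming BCL2 relative, was found at 23.6 and 23.2 CPM with R1881 alone, 48.2 and 43.1 with namoline, 29.2 and 34.9 with TCE-5002 and 76.6 and 91.2 with the combination. The libraries of every treatment stood above those with R1881 alone. BAX rose by 0.94 ± 0.14 with namoline, 0.43 ± 0.14 with TCE-5002 and 1.83 ± 0.14 with the combination, and the TCE-5002 call was lost with GC correction and without R1881 replicate 1, R1881 replicate 2 or TCE-5002 replicate 2. PHLDA3, an inhibitor of AKT signalling at the membrane, stood at 7.86 and 7.61 CPM with R1881 alone, 17.6 and 16.7 with namoline, 8.25 and 11.3 with TCE-5002 and 81.9 and 90.8 with the combination. Its log2 rise was 3.46 ± 0.16 with the combination and 1.13 ± 0.17 with namoline. AEN, an apoptosis-enhancing nuclease, was present at 26.6 and 30.6 CPM with R1881 alone, 52.6 and 59.1 with namoline, 43.7 and 46.2 with TCE-5002 and 205 and 216 with the combination, with all 3 treatments above both R1881 libraries and log2 rises of 0.94 ± 0.12, 0.63 ± 0.12 and 2.87 ± 0.12.

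The TRAIL receptors parted from one another. TNFRSF10A, a signalling receptor, was higher with every treatment of C4-2, by 1.40 ± 0.13 with namoline, 0.98 ± 0.13 with TCE-5002 and 1.76 ± 0.13 with the combination. TNFRSF10B, the other signalling receptor and the target with the highest level per length with R1881 alone (57.9 ± 1.94 FPKM, SD, n = 2), fell by 0.45 ± 0.11 on the log2 scale with namoline and rose by 0.62 ± 0.11 with the combination. TNFRSF10C, a decoy receptor without a death domain, was the only target that fell with the combination, from 6.36 and 7.23 CPM to 2.71 and 2.61 CPM (log2 -1.36 ± 0.23, adjusted p = 0.0002). TP53INP1, CDIP1 and TRIAP1 each rose with the combination by 1.27 to 1.36. EDA2R, the ectodysplasin A2 receptor, had 1 count in each C4-2 library with R1881 alone and 4 and 5 counts in those with the combination, and was not tested there.

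All 4 repair genes rose at least 2-fold with the combination, as did 8.87% of all genes. DDB2, which recognises ultraviolet damage in nucleotide excision repair, stood at 20.8 and 20.3 CPM with R1881 alone, 47.9 and 39.2 with namoline, 35.6 and 37.8 with TCE-5002 and 140.0 and 158 with the combination. Each treatment separated from R1881 alone, with log2 values of 1.06 ± 0.13, 0.81 ± 0.13 and 2.84 ± 0.13. XPC, its partner in damage recognition, was found at 62.9 and 60.1 CPM with R1881 alone, 49.4 and 47.9 with namoline, 42.4 and 42.2 with TCE-5002 and 225 and 234 with the combination. It fell slightly with either inhibitor, by 0.36 ± 0.11 and 0.56 ± 0.11, and rose with both by 1.88 ± 0.11 (adjusted p = 1.3e-08). The small decrease with namoline was lost without the filter on low counts and on leaving out any of the 4 libraries. POLH, a translesion polymerase, stood at 25.7 and 28.8 CPM with R1881 alone, 35.2 and 34.3 with namoline, 27.2 and 24.4 with TCE-5002 and 86.2 and 88.9 with the combination. Its combination pair was clear of the rest, a rise of 1.67 ± 0.12. RRM2B, the p53-inducible ribonucleotide reductase subunit, stood at 69.5 and 62.4 CPM with R1881 alone, 99.3 and 87.8 with namoline, 84.3 and 64.6 with TCE-5002 and 141 and 147 with the combination, with the smallest rise of the 4, 1.11 ± 0.13. XPC overlaps LSM3 on the opposite strand over 6.63% of its exons and XPC-AS1 over 23.8%. Reads in these shared stretches cannot be told apart without strand, and how they were counted was not examined.

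Among the 7 metabolic targets the combination raised 6, all at least 2-fold, where 24.8% of all genes rose and 8.87% rose at least 2-fold. FDXR, a mitochondrial ferredoxin reductase, stood at 24.7 and 28.0 CPM with R1881 alone, 45.2 and 41.6 with namoline, 25.6 and 36.4 with TCE-5002 and 163 and 187 with the combination, a rise of 2.72 ± 0.16 with the combination, and only its TCE-5002 pair overlapped with R1881 alone. SPATA18, a regulator of mitochondrial quality, stood at 8.61 and 10.5 CPM with R1881 alone, 18.9 and 14.0 with namoline, 12.7 and 9.10 with TCE-5002 and 63.9 and 73.2 with the combination, and rose by 2.84 ± 0.19. TP53I3, a quinone oxidoreductase, moved in different directions with the single inhibitors. Its levels were 6.08 and 7.42 CPM with R1881 alone, 16.8 and 12.7 with namoline, 2.94 and 4.71 with TCE-5002 and 29.3 and 29.8 with the combination. Namoline raised it by 1.11 ± 0.21 and TCE-5002 lowered it by 0.83 ± 0.24 (adjusted p = 0.013), a call that was lost without R1881 replicate 2 and without TCE-5002 replicate 1, and the combination raised it by 2.13 ± 0.21.

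TIGAR, a fructose bisphosphatase that lowers glycolytic flux, was present at 19.0 and 21.2 CPM with R1881 alone, 25.6 and 26.2 with namoline, 23.5 and 15.7 with TCE-5002 and 62.2 and 63.7 with the combination. It rose by 1.64 ± 0.16 with the combination and did not pass the test with either inhibitor alone. With namoline it passed, as higher, with GC correction (0.37) and in a fit of only the 4 libraries compared (0.34). ACER2, an alkaline ceramidase, was measured at 9.17 and 9.21 CPM with R1881 alone, 14.3 and 11.6 with namoline, 10.8 and 12.0 with TCE-5002 and 29.8 and 29.4 with the combination, with rises of 0.48 ± 0.16 and 1.67 ± 0.16 for namoline and the combination, of which the namoline call was lost with DESeq2 and without any of 3 libraries (either with R1881 alone, and namoline replicate 1). SESN1, a sestrin that restrains mTORC1, rose with the combination by 1.43 ± 0.12. The autophagy regulator DRAM1 did not pass the test with the combination, at 24.2 and 27.7 CPM against 24.7 and 23.5 CPM with R1881 alone (log2 0.09 ± 0.14, adjusted p = 0.62).

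The secreted and other targets held the largest ratios, several of them from very low levels. SULF2, an extracellular heparan sulfate 6-O-endosulfatase, was found at 0.327 and 0.704 CPM with R1881 alone, 4.58 and 3.24 with namoline, 0.893 and 0.803 with TCE-5002 and 15.2 and 15.3 with the combination. Both the namoline and the combination pairs stood above the rest, with log2 rises of 2.96 ± 0.35 and 4.92 ± 0.31 (adjusted p = 3.1e-08). SULF2 overlaps the expressed gene NCOA3 on the opposite strand over 1.44% of its exons. LIF, the interleukin-6 family cytokine, stood at 0.842 and 1.22 CPM with R1881 alone, 3.94 and 2.76 with namoline, 1.26 and 1.45 with TCE-5002 and 16.9 and 17.6 with the combination. It rose by 1.71 ± 0.29 with namoline and 4.07 ± 0.26 with the combination. KITLG, the ligand of the KIT receptor, stood at 4.12 and 3.58 CPM with R1881 alone, 9.99 and 6.71 with namoline, 9.19 and 7.17 with TCE-5002 and 39.1 and 38.8 with the combination. Every treatment raised it, by 1.09 ± 0.22, 1.06 ± 0.22 and 3.32 ± 0.21 with namoline, TCE-5002 and the combination.

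TRIM22, a tripartite motif ubiquitin ligase that is also induced by interferon, had 2 and 3 counts with R1881 alone, 47 and 34 with namoline, 14 and 25 with TCE-5002 and 135 and 141 with the combination. The ratio of its scaled counts to R1881 was 17.8 with namoline, 7.65 with TCE-5002 and 59.8 with the combination, with 95% exact intervals of 7.32 to 56.3, 3.01 to 24.9 and 25.3 to 186, which cover counting error only. All 3 changes passed the test, with adjusted p-values of 3e-05, 0.0016 and 1.6e-07, but the fitted log2 values depend on how 2 or 3 counts are handled. NINJ1, a protein of plasma membrane rupture, stood at 61.1 and 74.5 CPM with R1881 alone, 76.8 and 79.8 with namoline, 61.1 and 78.9 with TCE-5002 and 125 and 131 with the combination, a rise of 0.91 ± 0.14 with the combination. RPS27L and BLOC1S2 rose with the combination by 0.65 and 0.69. CYFIP2 did not pass the test with the combination (log2 0.08 ± 0.12), and with TCE-5002 it fell by 0.49 ± 0.12.

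Whether the combination exceeded the sum of both single effects was tested as the interaction, the log2 effect of the combination less the summed log2 effects of the single inhibitors, where 0 means that the effects add. It was positive for 32 of the 40 genes and negative for 2, against 25.6% and 27.9% of all genes, with a median of 1.24 for the targets and -0.01 for all genes. GADD45A had the highest value, 4.48 ± 0.24 (adjusted p = 3.6e-09 by edgeR), followed by XPC at 2.81 ± 0.15. Both genes fell with namoline and rose with both inhibitors together. The XPC decrease with namoline was small, and its call was lost without the filter on low counts. FAS, BBC3, PLK3 and CDKN1A followed, at 2.59 ± 0.38, 2.58 ± 0.36, 2.51 ± 0.24 and 2.26 ± 0.21. The 2 negative values were those of the receptors TNFRSF10C (-1.20 ± 0.31) and TNFRSF10A (-0.62 ± 0.17), the second of which rose with each inhibitor alone. The 6 genes that did not pass were BAX, SULF2, RPS27L, DRAM1, PLK2 and TRIM22, with values from -1.09 to 1.20 and standard errors up to 0.68 for TRIM22. BAX, at 0.45 ± 0.19, passed under 6 alternatives, RLE scaling and DESeq2 among them, and SULF2, at 1.20 ± 0.52, passed with GC correction and without R1881 replicate 1 or namoline replicate 1. RRM2B, at 0.48 ± 0.18, no longer passed without R1881 replicate 1 or 2, namoline replicate 2, TCE-5002 replicate 2 or combination replicate 1 or 2, and NINJ1, at 0.69 ± 0.20, without R1881 replicate 2.

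**Figure D3:**
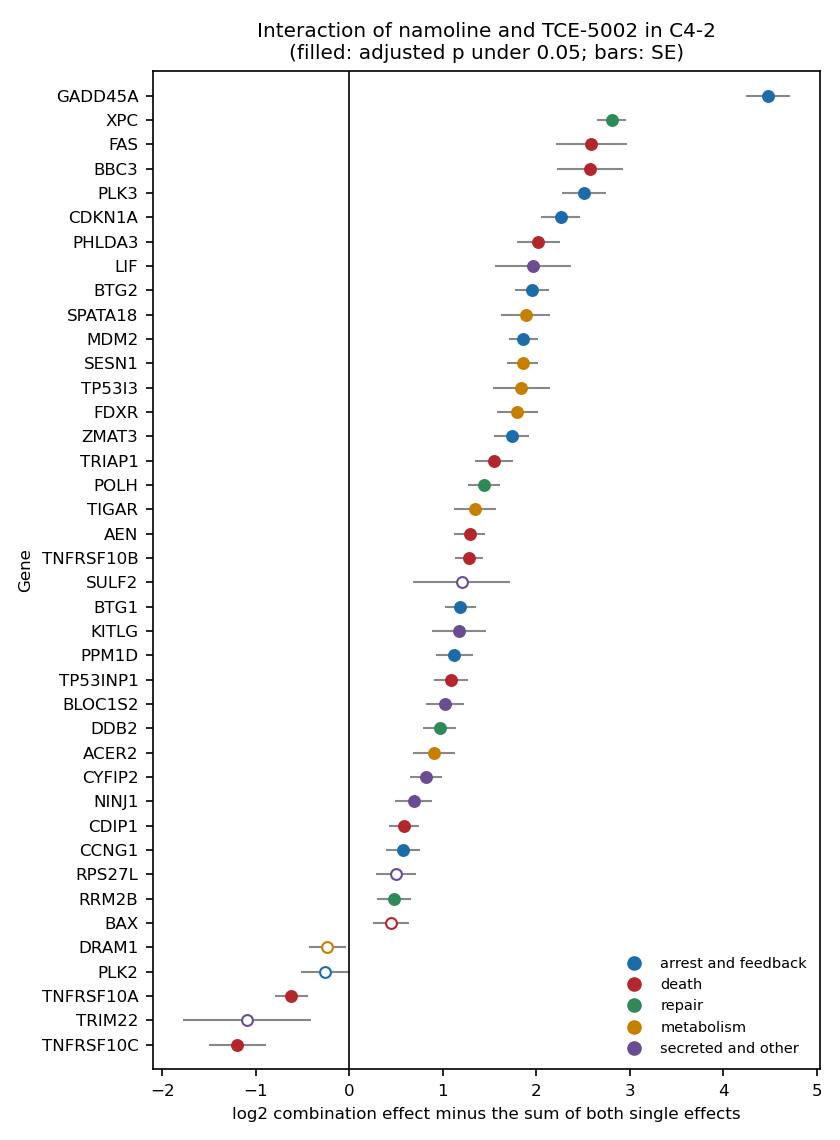
Interaction of namoline and TCE-5002 for the 40 targets tested in C4-2, as the log2 combination effect minus the sum of both single effects (horizontal axis) with standard errors, sorted by value and coloured by role; filled points passed an adjusted p under 0.05. GADD45A lies at the top with 4.48, and TNFRSF10C and TNFRSF10A are the filled points left of 0.

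The combination also stood above each inhibitor by itself for 37 of the 40 genes. The share of all genes above both was not counted. Against namoline alone the combination raised 37 of the 40 genes and lowered 2, against 26.9% and 29% of all genes, with a median of 1.33. The lowered genes were TNFRSF10C, by 1.05 ± 0.23, and PLK2, by 0.46 ± 0.17 (adjusted p = 0.033), and the PLK2 call was lost under RLE scaling, without the filter on low counts, with DESeq2, and without either namoline or either combination library. Compared with TCE-5002 alone it raised 38 and lowered 1, TNFRSF10C, against 26.4% and 28.7% of all genes, with a median of 1.77. CDKN1A was higher by 2.82 ± 0.15 than with namoline and by 3.93 ± 0.16 than with TCE-5002.

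Among the same 41 genes more fell than rose in the libraries labelled LNCaP. With the combination 6 rose and 19 fell, against 28% and 28.2% of all 17565 genes tested there. At least 2-fold calls numbered 0 upward and 6 downward, against 7.44% and 11.3% of all genes, and the median log2 fold change was -0.32, with all genes centred near 0. Without combination replicate 1, the library whose header names another input, 6 rose and 20 fell, 2 and 7 of them at least 2-fold, and the median was -0.33. The 2 genes then called at least 2-fold higher were CCNG1 and EDA2R, at 1.06 and 1.08, the further gene called 2-fold lower was BTG2, at -1.13, and the further gene that fell was CDIP1, at -0.32. The summed level of the 41 genes was 2747 and 2846 CPM with R1881 alone and 2202 and 2281 CPM with the combination, and these ranges did not overlap.

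The decreases were led by PHLDA3, NINJ1, TP53I3, AEN, LIF and BBC3, the 6 genes called at least 2-fold lower. PHLDA3 stood at 67.3 and 72.4 CPM with R1881 alone and 17.5 and 16.1 with the combination, a fall of 2.00 ± 0.12 on the log2 scale (adjusted p = 1.5e-14). NINJ1 was found at 46.3 and 37.7 CPM with R1881 alone and 12.7 and 12.6 with the combination, a fall of 1.66 ± 0.14. TP53I3 was low in either group, at 5.68 and 5.35 CPM with R1881 alone and 1.58 and 2.06 with the combination, a fall of 1.53 ± 0.28. In each of these 6 genes both combination libraries were below both R1881 libraries. AEN stood at 209.5 and 200.1 CPM with R1881 alone and 84.5 and 67.2 with the combination, a fall of 1.37 ± 0.11. LIF was measured at 5.16 and 5.03 CPM with R1881 alone and 1.76 and 2.32 with the combination, a fall of 1.25 ± 0.28. BBC3 was present at 65.4 and 66.6 CPM with R1881 alone and 34.4 and 28.5 with the combination, a fall of 1.01 ± 0.12. Apart from NINJ1, whose rise in C4-2 was under 2-fold, these genes were called at least 2-fold higher with the combination in C4-2, and all 5 stayed below -1 in the libraries labelled LNCaP without combination replicate 1.

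Of the 10 arrest and feedback genes 6 fell in the libraries labelled LNCaP, none by 2-fold, against 28.2% and 11.3% of all genes. Without combination replicate 1 the log2 change of BTG2 was -1.13. CDKN1A was measured at 124 and 130.1 CPM with R1881 alone and 83.1 and 71.2 with the combination, a fall of 0.66 ± 0.11 (adjusted p = 3.6e-06). BTG2 stood at 41.4 and 40.1 CPM with R1881 alone and 22.6 and 18 with the combination, a fall of 0.95 ± 0.13. PLK3 was found at 9.09 and 9.46 CPM with R1881 alone and 5.76 and 4.85 with the combination, a fall of 0.75 ± 0.20. The same order of groups held for the feedback genes. MDM2 stood at 267 and 282 CPM with R1881 alone and 155 and 173 with the combination, a fall of 0.69 ± 0.10. PPM1D was present at 76.8 and 77.8 CPM with R1881 alone and 42.2 and 42.7 with the combination, a fall of 0.80 ± 0.11.

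Smaller decreases were called for further genes of the other roles. Of the 12 genes of cell death 6 fell, 3 of them at least 2-fold, against 28.2% and 11.3% of all genes. The others were TP53INP1 (48.8 and 46.2 CPM to 25.5 and 25.5 CPM), TRIAP1 (121 and 112 CPM to 56.2 and 71.4 CPM) and TNFRSF10B (256 and 279 CPM to 201 and 187 CPM). XPC went from 82.2 and 96.4 CPM to 59.0 and 55.8 CPM, a fall of 0.58 ± 0.11, and was the one repair gene called. TIGAR went from 46.9 and 50.1 CPM to 22.7 and 25.8 CPM, a fall of 0.94 ± 0.12. FDXR went from 23.5 and 19.8 CPM to 14.6 and 11.3 CPM, a fall of 0.69 ± 0.16 that no longer passed with GC correction and that stood at -0.89 without combination replicate 1. KITLG went from 31.4 and 32.9 CPM to 21.8 and 24.8 CPM, a fall of 0.40 ± 0.13 that no longer passed without R1881 replicate 2.

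Several genes that responded strongly in C4-2 did not pass the test here. GADD45A stood at 97.0 and 87.5 CPM with R1881 alone and 92.5 and 95.4 with the combination (log2 0.09 ± 0.10), and passed, as higher, with GC correction. FAS stood at 7.77 and 10.7 CPM with R1881 alone and 7.95 and 9.60 with the combination (log2 -0.01 ± 0.19). DDB2 stood at 50.6 and 45.8 CPM with R1881 alone and 46.8 and 47.8 with the combination (log2 0.03 ± 0.11). In each of these 3 the groups overlapped, as they did for SPATA18, POLH, ACER2 and TRIM22. SPATA18 was found at 25.1 and 31.1 CPM with R1881 alone and 27.5 and 29.1 with the combination (log2 0.07 ± 0.13). POLH was found at 52.3 and 59.4 CPM with R1881 alone and 54.9 and 56.2 with the combination (log2 0.05 ± 0.11). RRM2B was found at 88.4 and 102 CPM with R1881 alone and 82.4 and 85.2 with the combination (log2 -0.12 ± 0.11) and SULF2 at 44.4 and 40.7 CPM with R1881 alone and 33.4 and 35.5 with the combination (log2 -0.24 ± 0.12). The last 2 were lower in both combination libraries than in both R1881 libraries without passing the test, and RRM2B passed with GC correction. ACER2 was measured at 3.84 and 3.11 CPM with R1881 alone and 6.19 and 3.56 with the combination (log2 0.54 ± 0.27, and 0.08 without combination replicate 1). TRIM22 was measured at 0.805 and 1.05 CPM with R1881 alone and 0.910 and 1.60 with the combination (log2 0.50 ± 0.46).

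In LNCaP-labelled libraries the 6 genes that rose were CCNG1, EDA2R, RPS27L, SESN1, BLOC1S2 and BAX. CCNG1, an atypical cyclin, rose by 0.97 ± 0.11 on the log2 scale, from 192 and 220.3 CPM to 358 and 416 CPM. EDA2R rose by 0.89 ± 0.22, from 3.79 and 5.12 CPM to 6.67 and 9.14 CPM. BAX rose by 0.31 ± 0.11, from 56.4 and 58.1 CPM to 66.3 and 70.0 CPM, and no longer passed without either R1881 library. The other 3 rose by 0.44 to 0.75. In C4-2 5 of these 6 also rose with the combination, as did 24.8% of all genes, and EDA2R was not tested there.

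The difference of the combination effect between the lines was tested directly. It was higher in C4-2 for 35 of the 41 genes and lower for 1, against 21.7% and 25.9% of all 19763 genes tested, with a median of 2.41, where that of all genes was -0.10. PHLDA3 (5.41 ± 0.16), LIF (5.27 ± 0.33), SULF2 (5.12 ± 0.27) and CDKN1A (5.09 ± 0.15) were among the largest differences. TNFRSF10C was lower in C4-2 (-1.19 ± 0.29), and CYFIP2, DRAM1, RPS27L, BLOC1S2 and EDA2R did not pass. Of the 40 genes tested in both lines 19 rose in C4-2 and fell in the libraries labelled LNCaP, 5 rose in both and none fell in both. The share of all genes with each of these patterns was not counted. Taken singly, 24.8% of all genes rose and 25.6% fell in C4-2, and 28% rose and 28.2% fell in the libraries labelled LNCaP. Leaving out the library whose header differs gave 34 genes higher and 2 lower.

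**Figure D4:**
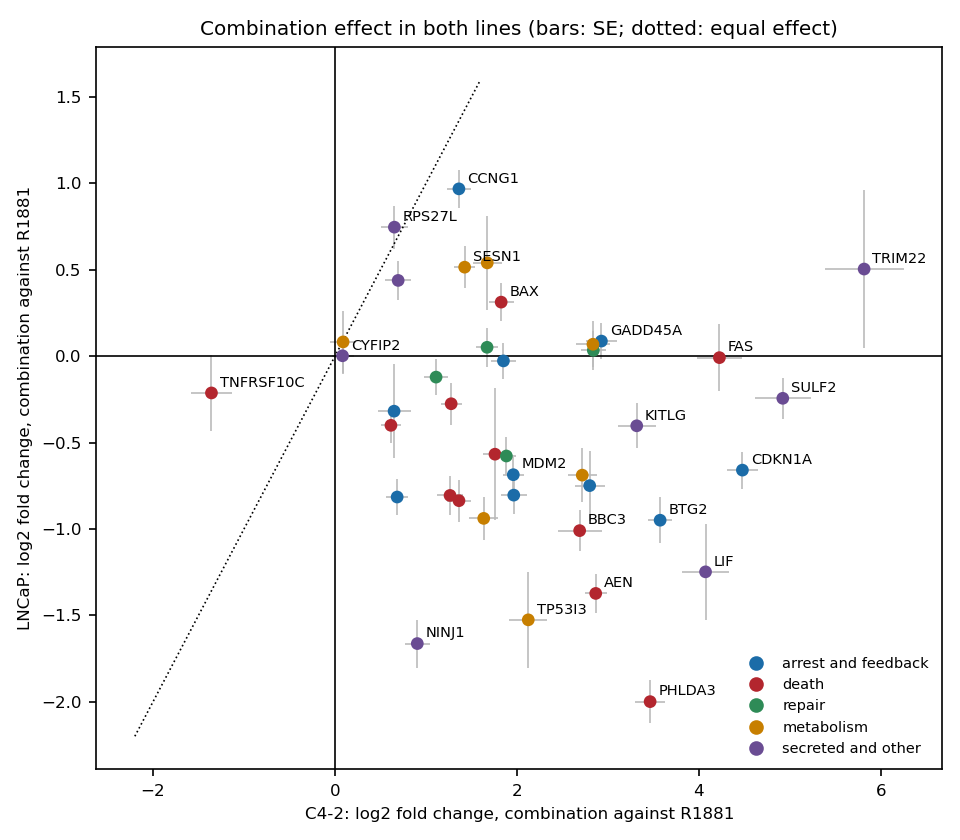
Log2 fold change with the combination in C4-2 (horizontal axis) and in the libraries labelled LNCaP (vertical axis) for the 40 genes tested in both, with standard errors and role colours; the dotted line marks equal effects. Nearly all points lie right of 0, many of them below 0 on the vertical axis, and PHLDA3 lies lowest at -2.00.

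With R1881 alone the libraries labelled LNCaP already held more RNA of most targets. Of the 41 genes 27 were higher there and 10 lower, against 39% and 37.8% of all genes, with a median log2 difference of 0.88, with all genes centred near 0. SULF2 stood at 44.4 and 40.7 CPM there and at 0.327 and 0.704 CPM in C4-2, a difference of 6.37 ± 0.21. BBC3 stood at 65.4 and 66.6 CPM and at 6.08 and 5.44 CPM, a difference of 3.45 ± 0.14. PHLDA3 stood at 67.3 and 72.4 CPM and at 7.86 and 7.61 CPM, a difference of 3.12 ± 0.12. These genes, like AEN and KITLG with differences of 2.79 ± 0.11 and 2.99 ± 0.14, did not overlap between the lines. EDA2R had 80 and 112 counts in the libraries labelled LNCaP and 1 count in each of the C4-2 libraries, a ratio of 82.6 with a 95% exact interval of 22.6 to 687. TNFRSF10A was lower there by 2.87 ± 0.18, RPS27L by 1.28 ± 0.11 and ACER2 by 1.46 ± 0.20. CDKN1A was higher by 0.90 ± 0.10 and MDM2 by 0.88 ± 0.09 with R1881 alone. With the combination the order was turned, and CDKN1A stood at 1420 and 1531 CPM in C4-2 and 83.1 and 71.2 CPM in the libraries labelled LNCaP. AEN in C4-2 came with the combination to 205 and 216 CPM, where the libraries labelled LNCaP stood at 209.5 and 200.1 CPM with R1881 alone.

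**Figure D5:**
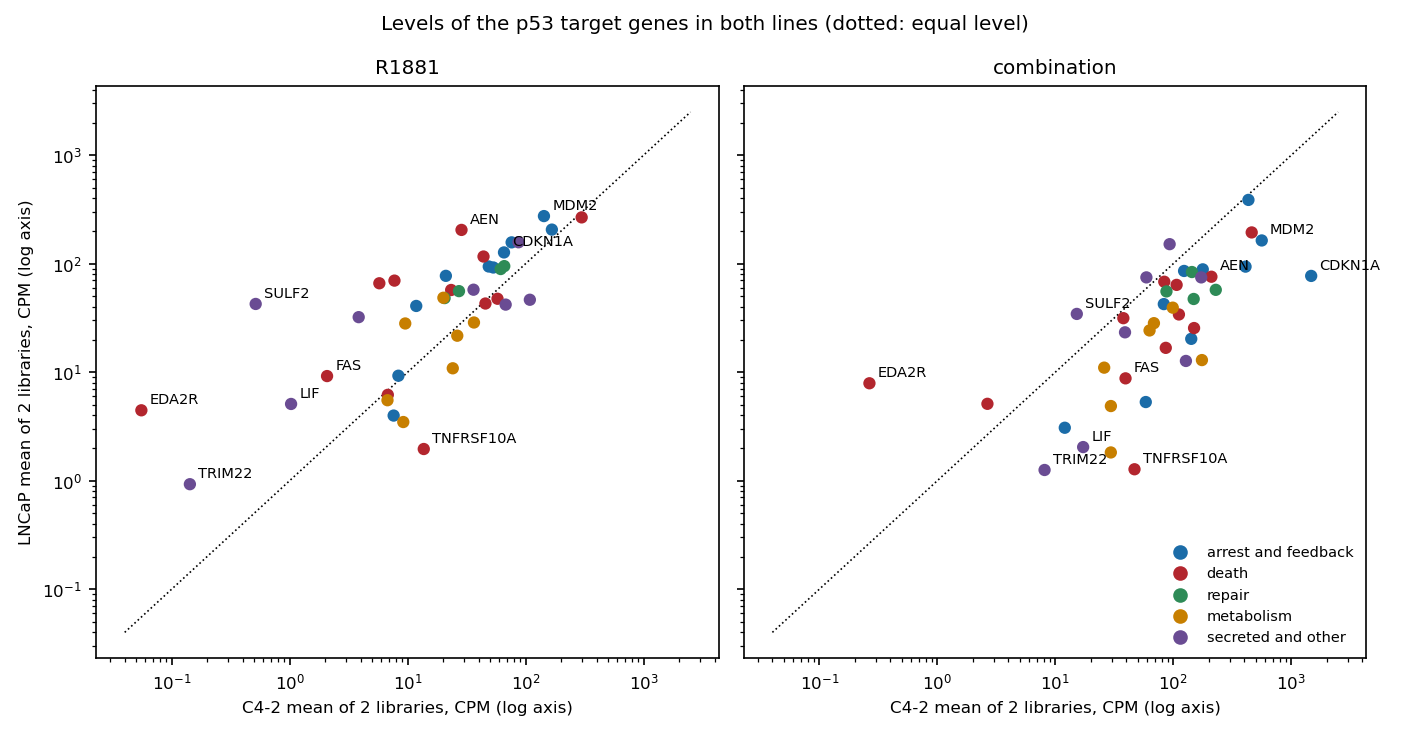
Mean level of the 41 targets in C4-2 (horizontal axis) and in the libraries labelled LNCaP (vertical axis), in CPM on log axes, with R1881 alone (left) and with the combination (right); each point is a gene, the mean of 2 libraries, coloured by role, and the dotted line marks equal levels. CDKN1A lies above the line with R1881 alone and far below it with the combination.

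Levels were also ranked per length of all annotated exons of a gene. This length can exceed that of the RNA made, so the order need not be that of transcript abundance. With R1881 alone in C4-2 the 3 highest were TNFRSF10B at 57.9 ± 1.94 FPKM, CCNG1 at 53.9 ± 0.993 FPKM and TRIAP1 at 30.5 ± 0.988 FPKM (SD, n = 2), with no overlap between neighbours in this order. With the combination they were CDKN1A at 484 ± 25.8 FPKM, GADD45A at 198 ± 9.09 FPKM and CCNG1 at 140.0 ± 7.86 FPKM, each apart from the next by more than the spread between libraries. In the libraries labelled LNCaP TRIAP1 led with R1881 alone at 80.7 ± 4.51 FPKM and CCNG1 with the combination at 125 ± 13.3 FPKM. EDA2R in C4-2, and TRIM22 in the libraries labelled LNCaP, were lowest, at 0.0155 ± 0.00340 and 0.154 ± 0.0289 FPKM with R1881 alone.

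A list of 30 regulators of p53, among them kinases, ubiquitin ligases and cofactors, had 29 members tested. With the combination in C4-2 12 rose and 5 fell (24.8% and 25.6% of all genes), with namoline 9 and 5 (18.7% and 16.3%) and with TCE-5002 6 and 7 (19.9% and 16.7%). In the libraries labelled LNCaP 17 rose and 8 fell, where 28% and 28.2% of all genes did.

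MDM4, an MDM2 relative that binds and restrains p53, stood at 88.2 and 91.0 CPM with R1881 alone, 64.7 and 70.5 with namoline, 58.8 and 62.4 with TCE-5002 and 189 and 185 with the combination. It rose by 1.05 ± 0.11 with the combination, having fallen with either inhibitor alone by 0.43 ± 0.11 and 0.58 ± 0.11. ATM, the kinase of the double-strand break response, stood at 121 and 117 CPM with R1881 alone, 91.1 and 86.5 with namoline, 115 and 129.7 with TCE-5002 and 219 and 218 with the combination. It too was lower with namoline and higher with the combination, with changes of -0.44 ± 0.11 and 0.86 ± 0.11 for namoline and the combination. CHEK2, a checkpoint kinase downstream of ATM, rose with each inhibitor alone by 1.08 ± 0.16 and 1.10 ± 0.16, and did not pass with the combination (0.29 ± 0.17). CDKN2A, which encodes the MDM2 inhibitor ARF as well as p16, had 1.50 and 0.704 CPM in C4-2 with R1881 alone and 101 and 119 CPM in the libraries labelled LNCaP, a difference of 6.51 ± 0.19, and fell with the combination in the latter to 69.9 and 65.7 CPM.

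p53 also lowers cell cycle genes indirectly, since p21 allows the DREAM complex to form on their promoters. A list of 16 such genes, all tested, had 14 lower and 0 higher with the combination in C4-2, 12 of them at least 2-fold, with a median of -1.50, where 25.6% of all genes were lower and 12.8% at least 2-fold lower. TCE-5002 alone, with which few p53 targets rose, lowered 13 of the 16 and raised 1, against 16.7% and 19.9% of all genes, with a median of -1.05. Namoline, with which 24 targets rose, raised 4 and lowered 3, against 18.7% and 16.3% of all genes, with a median of 0.22. In the libraries labelled LNCaP the combination raised 8 and lowered 3, against 28% and 28.2% of all genes, with a median of 0.23. The line difference passed as lower in C4-2 for all 16, against 25.9% of all genes. Their summed level was 1006 and 823 CPM with R1881 alone in C4-2, 1010 and 1355 CPM with namoline, 569 and 525 CPM with TCE-5002 and 391 and 330.5 CPM with the combination. The LNCaP-labelled libraries had sums of 2558 and 2935 CPM with R1881 alone and 2906 and 3215 CPM with the combination, which overlapped. Luminal markers moved in the same comparisons. With the combination in C4-2 9 of the 12 fell and 1 rose, against 25.6% and 24.8% of all genes. Their sum went from 5111 and 5160 CPM to 2804 and 2738 CPM. With TCE-5002 7 rose and 1 fell, against 19.9% and 16.7% of all genes, with sums of 7829 and 7440 CPM. In the libraries labelled LNCaP 8 fell and 2 rose with the combination, against 28.2% and 28% of all genes, from a summed 1022 and 930.3 CPM to 579 and 469.9 CPM, with a median of -0.54. The part of these marker changes in the values above was not tested.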

How the data were processed

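Polyadenylated RNA of 12 libraries was sequenced by the authors in paired ends, quality filtered, trimmed with TrimGalore and aligned to GRCh38 with STAR. The files deposited by the authors hold raw, whole-number counts per gene from featureCounts 1.5.0-p1 and Ensembl release 83, without a strand option. Depth is 14791602 to 20690819 counts per library.

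Genes were kept with filterByExpr, scaled by TMM and fitted in edgeR 4.0.16 (R 4.3.3, limma 3.58.1), where the quasi-likelihood F test gave p-values that were adjusted by Benjamini-Hochberg across every gene in the fit. C4-2 contrasts used its 8 libraries, LNCaP contrasts its 4, and contrasts between the lines the 8 libraries with R1881 or the combination. Genes rose or fell at an adjusted p under 0.05, and 2-fold calls also needed a log2 change of 1 or more in size. Standard errors were obtained by dividing the size of the log2 change by the root of F. CPM used TMM factors over all 12 libraries, and FPKM the gene lengths in the files. The steps were tested on simulated counts. With 2 libraries per group, p-values rest on spread shared across genes.

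The genes, their roles and the other lists were chosen with earlier results of these data known. Values per library are given, in each role, for the 5 genes with the largest 2-fold calls against R1881, for genes with opposite 2-fold calls, and for MDM2 and PPM1D. MDM4, ATM, CHEK2 and CDKN2A are named whatever their values, and 1 further gene of that rule is not reported here. TNFRSF10A, TNFRSF10B, TNFRSF10C, PLK2 and any further gene given with values lie outside this rule and were picked with the values in view. Other settings tried were RLE scaling, keeping low counts, DESeq2 1.42.0, a GC-content offset, a replicate block, fits on the 4 libraries compared, and leaving out each library. Promoter windows are from RefSeq.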

Additional observations from a re-analysis of the deposited data

Results flagged for a closer look

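The combination effect differed between C4-2 and the libraries labelled LNCaP by a test of the difference itself (edgeR quasi-likelihood F test, adjusted p under 0.05) and by at least 2-fold for 32 of the 41 targets, 31 with the higher value in C4-2 and 1 with the lower. The share of all genes that met both limits was not counted. By adjusted p alone, 21.7% of all genes tested were higher in C4-2 and 25.9% lower. The values are C4-2 minus LNCaP on the log2 scale.

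Arrest and feedback genes differed by 5.09 (CDKN1A), 4.48 (BTG2), 3.50 (PLK3), 2.79 (GADD45A), 2.72 (PPM1D), 2.59 (MDM2), 1.83 (ZMAT3) and 1.45 (BTG1). Genes of cell death differed by 5.41 (PHLDA3), 4.19 (AEN), 4.18 (FAS), 3.64 (BBC3), 2.28 (TNFRSF10A), 2.15 (TP53INP1), 2.02 (TRIAP1), 1.50 (CDIP1), 1.46 (BAX) and -1.19 (TNFRSF10C). The repair genes stood at 2.75 (DDB2), 2.41 (XPC), 1.57 (POLH) and 1.18 (RRM2B).

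Metabolic targets differed by 3.60 (TP53I3), 3.36 (FDXR), 2.72 (SPATA18), 2.52 (TIGAR) and 1.09 (ACER2), and secreted or other targets by 5.27 (LIF), 5.26 (TRIM22), 5.12 (SULF2), 3.67 (KITLG) and 2.52 (NINJ1). TRIM22 rests on 2 and 3 counts in the C4-2 libraries with R1881 alone.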

How the results depend on the processing

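No called result reversed under any alternative. Most counts of called targets stayed within 1.5 times of the value given. Most medians moved by no more than the median standard error of the targets in that comparison. Namoline lowered 1 to 2 targets when single libraries were left out, in place of 4. For TCE-5002, whose replicates lay farthest apart, 5 to 11 rose and 1 to 9 fell when single libraries were left out, with 1 to 3 raised and 0 to 1 lowered at least 2-fold. A GC-content offset gave 5 lower and 1 at least 2-fold lower there, and GC content with the replicate block gave 7 lower. LNCaP 2-fold higher calls numbered 0 to 2 when single libraries were left out, with 2 without R1881 replicate 2 or combination replicate 1. The combination lowered 1 target against namoline, in place of 2, with RLE scaling, no filter on low counts, DESeq2 and on leaving out libraries (1 in every case). The median against TCE-5002 ran from 1.64 to 1.98, and the line difference had 1 to 2 targets lower and a median from 2.36 to 2.57, when single libraries were left out. Among 225 values of named genes, 2600 alternatives gave 57 lost calls, 30 gained calls and 35 moves of values with no call. The cause of these changes was not tested.

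Replicate numbers were not taken as pairs, since the labels tie them to no shared culture or day and each group has only 2. Deviations of libraries with the same number correlated at -0.03 to 0.41 between C4-2 groups, at 0.04 between the LNCaP groups and at -0.52 to -0.04 between the lines. The fit with a replicate block moved none of the 35 counts and medians by the limits given above. It changed 1 of the 225 named values, the BAX interaction of 0.45, which then passed. The 2 libraries per group limit what a missed test can show, and at 1 to 3 counts per library (EDA2R, TRIM22) ratios are set by counting error.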

Other observations

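Of the 29 genes tested that act on p53, the combination in the libraries labelled LNCaP raised 5 at least 2-fold (17.2%, against 7.44% of all genes) and lowered 1 (against 11.3%), and in C4-2 it raised 1 and lowered 1 (against 8.87% and 12.8%). The genes named here were chosen after their values were seen. Among the rises in the libraries labelled LNCaP were those of PRMT5, an arginine methyltransferase (1.03 ± 0.10), and RPL11, RPL23 and RPL5, ribosomal proteins that can bind and inhibit MDM2 (1.40 ± 0.12, 1.24 ± 0.12 and 1.25 ± 0.13). RPL5 stood at 1262 and 1407 CPM with R1881 alone and at 2740 and 3349 CPM with the combination there. In C4-2 the combination raised RPL11 by 0.56 ± 0.14 and RPL5 by 0.39 ± 0.14, and RPL23 did not pass the test, at 0.31 ± 0.14 (adjusted p = 0.068 by edgeR). Ribosomal protein genes have many near-identical processed copies, so that their counts are uncertain. MDM2 RNA fell in the same LNCaP comparison, by 0.69 ± 0.10, and CDKN1A RNA by 0.66 ± 0.11.

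In C4-2 the 2-fold decrease on that list was SMYD2, a lysine methyltransferase, which went from 9.73 and 9.92 CPM to 4.37 and 2.92 CPM with the combination (log2 -1.43 ± 0.20, adjusted p = 5.2e-05 by edgeR's quasi-likelihood F test with Benjamini-Hochberg adjustment).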
